A study of Mus musculus with 32 samples.

Results

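The Src family kinases of microglia and the 2 enzymes that set their tail phosphate were followed in a mouse model of tauopathy. The group holds 7 genes out of the 18588 measured, namely the kinases Fgr, Lyn, Fyn, Yes1 and Src, the inhibitory kinase Csk, and Ptprc, which encodes the phosphatase CD45. They were found by matching each name to its Entrez number, and all 7 had a row. Fgr was chosen by the rise of its own signal in rTg4510 over WT libraries, so its genotype differences are given as a description with no test, and only its change with age in WT mice was tested. The other 6 genes were listed for their place beside Fgr, and their differences were tested in a fit over all genes.

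All mice were female. The rTg4510 mice carry a human P301L tau transgene that is switched on in forebrain neurons by a second transgene, a tetracycline transactivator under the CaMKIIα promoter, while the WT littermates (strain 129/FVB F1) carry neither, so an effect of tau and an effect of the transactivator or of the insertions cannot be told apart. Microglia were taken with CD11b beads from the pooled forebrains of several animals, and RNA was sequenced in 4 libraries for every genotype and age (2, 4, 6 or 8 months). The authors kept 28 libraries, so that each group holds 4 libraries at 2 and 6 months and 3 at the other ages. In bulk RNA of this kind, fewer cells of a type and less RNA per cell cannot be told apart.

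Src family kinases are non-receptor tyrosine kinases anchored to the inner face of the plasma membrane by lipid. Each is held shut when a tyrosine in its tail is phosphorylated by Csk and is released when a phosphatase such as CD45 takes that phosphate off. In myeloid cells Fgr and Lyn phosphorylate the ITAM motifs of activating receptor complexes such as Fc receptors, which then recruit Syk, and they also act below integrins. Lyn in addition phosphorylates the ITIM motifs of inhibitory receptors, which recruit the phosphatases SHP-1 and SHIP-1. Transcript levels say nothing of kinase activity, which was not measured.

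The values are log2 gene signals, median normalized by the authors, so a difference of 1 is a doubling, and levels are compared only within a gene. The interval of a difference is a 95% interval from the spread of all 28 libraries. A gene passed the test at an FDR below 0.05, and it was a DEG when it also differed by more than 1.5 fold (0.58 on the log2 scale). Among all genes the share of DEGs was 1.98%, 13.8%, 19.8% and 15.9% at 2, 4, 6 and 8 months.

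The cell type and the libraries were checked first. Of the 8 microglia markers, all but Aif1 were high in every library, with Cx3cr1 between 13.02 and 14.05 and Csf1r between 11.89 and 12.45. Aif1 lay between 5.85 and 6.60, not far above the median gene signal of 5.63. Genes of other cells were also present, as the neutrophil gene S100a9 lay at least 3.92, the astrocyte gene Aqp4 at least 4.22 and the border macrophage gene Mrc1 at least 7.29 above the lowest value of every library, while neuronal Syt1, T cell receptor gene Trac and the neutrophil elastase gene Elane reached that lowest value in at least 1 library. The row for the mouse tau gene Mapt did not check the transgene, as it lay between 4.14 and 6.77 in WT and between 3.51 and 5.41 in rTg4510 libraries, and its difference passed at no age. The 4 libraries left out by the authors after failed QC, the WT and rTg4510 replicates numbered 3 at 4 months and 4 at 8 months, enter only where they are named. The rTg4510 library left out at 4 months stood apart, with Fgr at 3.83, Csk at 4.52 and Yes1 at 3.53, all below the kept rTg4510 libraries of that age. Fyn (5.88), Lyn (8.81) and Src (4.67) in it lay above those libraries.

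Fgr (Entrez 14191) lies on chromosome 4 of GRCm38.p6, and no other GENCODE gene overlaps it. RefSeq gives the 250 bases before its start at chr4:132973845-132974094 on the plus strand. They are shown because Fgr carries the largest genotype difference of the group, with a match to the core of ETS factors, GGAAGT, in capitals, and because PU.1, the ETS factor that defines myeloid cells, binds sites with a GGAA core.

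Fgr: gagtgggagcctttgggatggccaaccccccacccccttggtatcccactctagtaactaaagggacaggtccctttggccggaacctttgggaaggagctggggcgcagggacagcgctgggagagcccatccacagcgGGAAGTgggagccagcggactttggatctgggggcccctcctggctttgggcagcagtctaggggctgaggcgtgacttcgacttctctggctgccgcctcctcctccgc

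The match starts 110 bases before the start of the gene. Of 32851 RefSeq promoter windows of this length, 19.7% hold GGAAGT on either strand. Windows were also read for Fyn, Yes1, Src, Csk and Ptprc. Ptprc (minus strand of chromosome 1) had matches in both of its windows. One lay 112 bases and one 58 bases before the transcript start of the outer window, and the second of these also fell 237 bases before that of the inner window. Both windows lie inside the gene (chr1:138062859-138175756), so neither match is shown to lie before its outermost start. The bases around the 2 matches, with the match or its reverse complement in capitals, were as follows.

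Ptprc, 112 bases before the start: cttgaattaaGGAAGTaagaagccat

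Ptprc, 58 bases before the start: tttttttttaACTTCCtgcaaagagg

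The windows of Fyn, Yes1, Src and Csk held no GGAAGT, and no window of the 6 genes read (these 4, Fgr and Ptprc) held the AP-1 letters TGANTCA (6.75% of all windows) or the E-box CACGTG (6.02%) on either strand. The windows of Src and Ptprc and the inner window of Csk lie inside the gene, and that of Fyn overlaps its first bases. The bases before the outermost starts of Src and Ptprc were therefore not read. These matches describe letters in a window and were not tied to binding of any factor.

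In WT microglia Fgr stayed within 0.92 over all ages. The WT libraries read 3.55, 3.96, 3.77 and 4.06 at 2 months and 3.57, 3.88 and 4.05 at 4 months. They read 3.97, 3.69, 4.31 and 3.66 at 6 months and 4.04, 4.47 and 4.03 at 8 months. No WT age contrast of Fgr passed the test, and 8 against 2 months differed by 0.34 (interval -0.05 to 0.73, FDR = 0.331, limma).

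In rTg4510 microglia the Fgr libraries read 4.84, 4.87, 5.30 and 4.88 at 2 months and 6.66, 6.18 and 6.32 at 4 months. At 6 months they read 6.02, 6.31, 6.09 and 6.52, and at 8 months 6.56, 6.44 and 6.14. The genotypes did not overlap at any age, and the 10 rTg4510 libraries of 4 to 8 months (6.02 to 6.66) lay above the 4 of 2 months (4.84 to 5.30), which lay above the 14 WT libraries (3.55 to 4.47).

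As a description, the Fgr difference between genotypes was 1.14 ± 0.17 (SE) at 2 months, a 2.20 fold higher level. It was 2.55 ± 0.20 at 4 months (5.87 fold), 2.33 ± 0.17 at 6 months (5.02 fold) and 2.20 ± 0.20 at 8 months (4.61 fold). Within rTg4510 mice Fgr was 1.42 ± 0.19 higher at 4 than at 2 months, after which the steps were -0.15 and 0.15 (SE 0.19 each). The libraries left out by the authors differed here, as the rTg4510 library of 4 months (3.83) sat at the level of its WT counterpart (3.76), while the pair of 8 months read 5.95 and 4.05. With all 32 libraries the 4 month difference was 1.93.

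**Figure D1:**
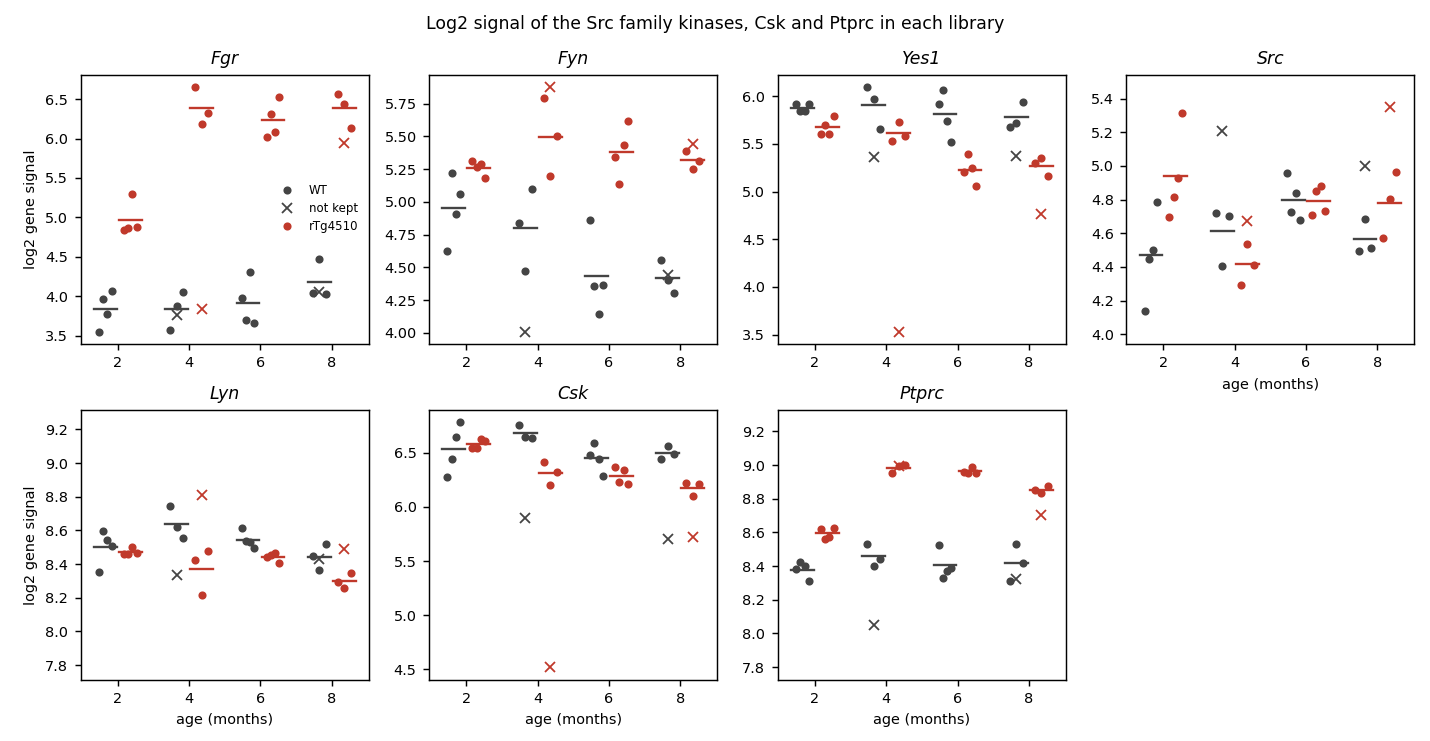
Log2 gene signal (vertical axes, scaled for each gene) against age in months for the 7 members. Points are kept libraries, bars their group means, and crosses the 4 libraries the authors left out. Fgr separates into WT (3.55 to 4.47), rTg4510 of 2 months (4.84 to 5.30) and rTg4510 of 4 to 8 months (6.02 to 6.66), while Lyn stays between 8.22 and 8.75 in the kept libraries.

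Markers of other cells were read beside Fgr, which neutrophils and monocytes also express. Of 9 neutrophil markers (S100a8, S100a9, Ngp and others), 0 passed at 2 or 4 months, and DEGs lower in rTg4510 numbered 8 at 6 months and 6 at 8 months. Their summed signal (log2) was 9.08 to 10.37 in WT and 7.47 to 8.18 in rTg4510 libraries at 6 months. At 4 and 8 months the rTg4510 libraries also lay below WT. At 2 months the genotypes overlapped, at 9.12 to 9.93 in WT and 8.77 to 10.41 in rTg4510. Of 5 monocyte markers, 1 was higher and 3 were lower at 6 months, and none was a DEG at 8 months. Of the 8 microglia markers, 1 was a lower DEG at 2 months (Fcrls, -0.62), 2 at 4 and at 6 months and 3 at 8 months. Sall1 (-0.86 at 6 months) and Tmem119 (-0.78) were among them, and no microglia marker was a higher DEG. The part of these shifts in the Fgr values was not tested.

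The other 6 members gave smaller differences. Those that passed the test numbered 2 at 2 months (6.03% of all genes passed), 4 at 4 months (23.2%), 3 at 6 months (34.1%) and 4 at 8 months (25.7%). Only Fyn was a DEG, at 4, 6 and 8 months, so 1 of 6 members was called at each of these ages, close to the share among all genes. Groups did not overlap for 2 members at 2 months, 4 at 4 months, 4 at 6 months and 5 at 8 months, against 11%, 36.6%, 32.8% and 36.7% of all genes.

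Fyn (Entrez 14360, chr10:39369743-39565381) encodes the kinase of the family best known in neurons, oligodendrocytes and T cells, where it acts below adhesion and antigen receptors. The WT libraries read 4.63, 5.22, 4.91 and 5.06 at 2 months, 4.84, 4.47 and 5.10 at 4 months, 4.86, 4.36, 4.14 and 4.37 at 6 months, and 4.56, 4.40 and 4.30 at 8 months. The rTg4510 libraries read 5.31, 5.27, 5.29 and 5.18 at 2 months, 5.80, 5.20 and 5.50 at 4 months, 5.34, 5.14, 5.43 and 5.62 at 6 months, and 5.39, 5.25 and 5.31 at 8 months. The genotypes overlapped at 2 months and were apart at each later age, where every rTg4510 library was the higher.

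Fyn was 0.70 ± 0.18 (SE) higher in rTg4510 at 4 months (1.62 fold, FDR = 0.00778), 0.95 ± 0.16 at 6 months (1.93 fold, FDR = 7.1e-05) and 0.90 ± 0.18 at 8 months (1.86 fold, FDR = 0.000795, limma). At 2 months it differed by 0.31 (interval -0.02 to 0.64, FDR = 0.356). The widening was not shown, since the genotype effect at 8 months exceeded that at 2 months by 0.59 with an FDR of 0.152. Neither genotype passed for its own change from 2 to 8 months, at -0.53 in WT (FDR = 0.0834) and 0.06 in rTg4510 (FDR = 0.873). The 4 month call was lost without replicate 1 of rTg4510 (0.55) or replicate 2 of WT (0.53). GENCODE lists 3 genes on the opposite strand of Fyn, and since strand was not stated to be kept, their reads cannot be told apart from those of Fyn.

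Yes1 (Entrez 22612, chr5:32611171-32687066), a broadly expressed member of the family, was lower in rTg4510. At 6 months the WT libraries read 5.91, 6.06, 5.74 and 5.52 and the rTg4510 libraries 5.20, 5.40, 5.25 and 5.06. At 8 months WT read 5.68, 5.72 and 5.94 and rTg4510 5.30, 5.35 and 5.16. The rTg4510 libraries lay below all WT libraries at both ages, and also at 2 months (5.598, 5.69, 5.61 and 5.79 against 5.92, 5.85, 5.84 and 5.92), but not at 4 months.

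Yes1 fell by 0.58 ± 0.10 (SE) at 6 months (1.496 fold, FDR = 0.000148), just short of the 1.5 fold needed for a DEG, and by 0.51 ± 0.12 at 8 months (1.42 fold, FDR = 0.00284). It passed neither at 2 months (-0.21, FDR = 0.332) nor at 4 months (-0.29, FDR = 0.088). In each of 5 fits that left out 1 library of 6 months, 2 members in place of 1 were DEGs at that age. The second was Yes1 without replicate 2 or 3 of rTg4510 or replicate 3 or 4 of WT. Without replicate 1 of WT it was Ptprc (0.60), not Yes1. Within rTg4510 mice Yes1 fell by 0.40 ± 0.11 from 2 to 8 months (FDR = 0.013), and WT changed by -0.10 (interval -0.33 to 0.13). The difference between these 2 age effects did not pass (-0.30, FDR = 0.293). With all 32 libraries both calls were lost (FDR = 0.189 and 0.252). GENCODE lists 3 genes over Yes1, 2 of them on the opposite strand.

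Src (Entrez 20779, chr2:157423906-157471838), the founding member of the family, differed in its time course. At 2 months the WT libraries read 4.14, 4.45, 4.50 and 4.79 and the rTg4510 libraries 4.70, 4.82, 4.93 and 5.32, so that 1 WT library (4.79) lay above the lowest of rTg4510. At 4 months WT read 4.72, 4.41 and 4.70 and rTg4510 4.30, 4.54 and 4.41. At 6 and 8 months the genotypes overlapped, with all libraries between 4.50 and 4.96.

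Src was 0.47 ± 0.13 (SE) higher in rTg4510 at 2 months (1.39 fold, FDR = 0.0335) and did not pass at 4 months (-0.20, interval -0.51 to 0.12), 6 months (-0.01, interval -0.28 to 0.27) or 8 months (0.22, interval -0.10 to 0.53). It fell by 0.53 ± 0.14 from 2 to 4 months within rTg4510 (FDR = 0.0141), and the genotype effect fell by 0.67 ± 0.20 over the same step (FDR = 0.0462, 7.33% of all genes passed). These calls were weak. The 2 month call was lost without each of 5 of its 8 libraries, replicate 3 or 4 of rTg4510 or replicate 1, 2 or 3 of WT (0.35 to 0.48), and the change of the genotype effect was lost in 21 of 28 fits that each left out 1 library.

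Lyn (Entrez 17096, chr4:3678068-3791612) is a myeloid and B cell kinase of the family. Lyn read 8.75, 8.62 and 8.56 in WT and 8.43, 8.22 and 8.47 in rTg4510 at 4 months, apart by a small gap. It fell by 0.27 ± 0.06 (SE) at that age (1.20 fold, FDR = 0.00281), and differed by -0.10 at 6 months (FDR = 0.148) and -0.14 at 8 months (FDR = 0.0965), where the rTg4510 libraries also all lay below WT. At 2 months the difference was -0.03 (interval -0.14 to 0.09). Within rTg4510 Lyn fell by 0.17 ± 0.06 from 2 to 8 months (FDR = 0.0373). With all 32 libraries the 4 month difference was -0.08, and under quantile normalization those of 6 and 8 months passed as well (-0.24 and -0.28). GENCODE lists 4 genes on the strand opposite Lyn.

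Lck, the T cell kinase, and Frk, an epithelial member, varied widely (residual SD 0.81 and 0.67, against 0.08 for Lyn), and neither passed at any age. Lck reached the lowest value of a library, and Frk lay 0.74 to 4.44 above it. Blk was not analysed here.

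**Figure D2:**
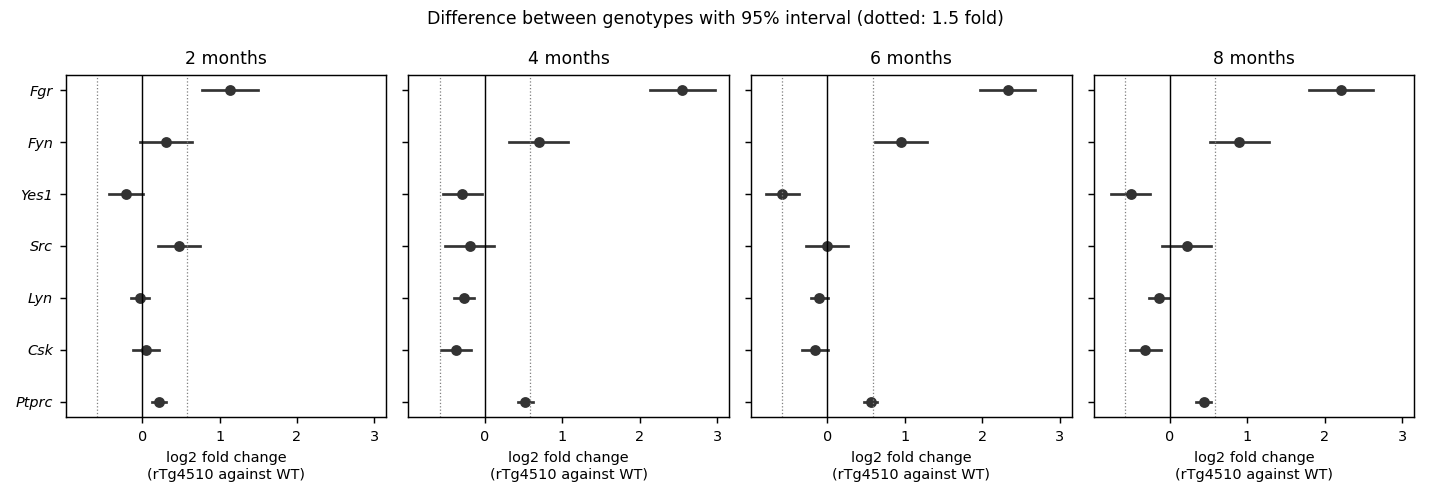
Log2 fold change of rTg4510 against WT (horizontal axis) for the 7 members at each age, with points for the estimate, lines for the 95% interval over the 28 libraries and dotted lines at 1.5 fold. Fgr stands at 1.14 to 2.55, Fyn passes 0.58 from 4 months on, and Lyn and Csk stay within 0.37 of 0. The values of Fgr are a description, as it was chosen for its rise.

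Csk (Entrez 12988, chr9:57626646-57653631) puts the inhibitory phosphate on the tail of the kinases. The WT libraries read 6.76, 6.64 and 6.64 at 4 months and 6.44, 6.56 and 6.49 at 8 months, and the rTg4510 libraries 6.41, 6.20 and 6.32 and then 6.22, 6.10 and 6.21. The genotypes were apart at both ages and overlapped at 2 and 6 months. Csk fell by 0.37 ± 0.10 (SE) at 4 months (1.29 fold, FDR = 0.00633) and by 0.32 ± 0.10 at 8 months (1.25 fold, FDR = 0.0161), with differences of 0.05 at 2 months (FDR = 0.867) and -0.16 at 6 months (FDR = 0.138).

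Within rTg4510 mice Csk was lower at 4 months than at 2 months by -0.27 (FDR = 0.0427) and at 8 months by -0.40 (FDR = 0.00209). The genotype effect fell by 0.42 ± 0.13 from 2 to 4 months (FDR = 0.0477), a call that was lost in 23 of 28 fits that left out 1 library. The 8 month difference of Csk was lost without replicate 2 of rTg4510 (-0.28) or replicate 2 of WT (-0.29). With all 32 libraries Csk passed neither at 4 months (-0.62, FDR = 0.117) nor at 8 months (-0.23, FDR = 0.659).

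Ptprc (Entrez 19264, chr1:138062859-138175756) encodes CD45, the receptor phosphatase of white blood cells that takes off the inhibitory tail phosphate. Its libraries varied least of the members, with a residual SD of 0.06 against a median of 0.23 over all genes. The WT libraries read 8.38, 8.42, 8.40 and 8.31 at 2 months, 8.53, 8.40 and 8.44 at 4 months, 8.53, 8.33, 8.37 and 8.39 at 6 months and 8.31, 8.53 and 8.42 at 8 months. The rTg4510 libraries read 8.62, 8.56, 8.57 and 8.63, then 8.95, 8.995 and 9.003, then 8.96, 8.95, 8.99 and 8.95, and then 8.85, 8.83 and 8.87. Every rTg4510 library lay above all 14 WT libraries. GENCODE lists 1 gene over Ptprc, A130071D04Rik, on the same strand.

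Ptprc rose by 0.22 ± 0.04 (SE) at 2 months (1.16 fold, FDR = 0.00211), 0.52 ± 0.05 at 4 months (1.44 fold, FDR = 5.15e-08), 0.56 ± 0.04 at 6 months (1.47 fold, FDR = 9.3e-10) and 0.43 ± 0.05 at 8 months (1.35 fold, FDR = 4.35e-07), below the limit of 1.5 fold each time. The genotype effect was larger at 4 than at 2 months by 0.31 ± 0.06 (FDR = 0.00413) and at 8 than at 2 months by 0.22 ± 0.06 (FDR = 0.0312, 9.76% of all genes passed). The rTg4510 library left out at 4 months, in which Fgr was at the WT level, read 8.99 for Ptprc. With all 32 libraries the 2 month call was lost (0.22, FDR = 0.139), while at 4 months Ptprc exceeded 1.5 fold and was a DEG. It was also a DEG at 6 months without replicate 1 of WT of that age (0.60). CD45 is shared by other white blood cells, whose markers moved both ways at 6 months. Of 5 T and NK cell markers, Klrb1c was then a higher DEG (2.31) and Nkg7 a lower one (-1.62), with a list median of -0.48. Neutrophil markers were lower. At 2, 4 and 8 months Klrb1c (0.89, 1.94 and 1.53) was the only T and NK marker that passed, as a higher DEG. The summed T and NK signal (log2), led by Klrb1c, was 6.98 to 7.21 in rTg4510 and 5.90 to 6.75 in WT at 6 months. At 4 months it was 6.66 to 6.89 and 5.82 to 6.59, and at 2 and 8 months the genotypes overlapped. The summed B cell signal, led by Ighm, was 12.79 to 12.95 in rTg4510 and 12.38 to 12.51 in WT at 2 months. At 4 months it was 12.46 to 12.54 and 12.20 to 12.40, though Cd79a and Cd79b were lower DEGs, and at 6 and 8 months the genotypes overlapped. Of 6 border macrophage markers, 1 was a lower DEG at 6 months and 0 at the other ages. Their part in the Ptprc values was not tested.

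Changes with age were read within each genotype. In WT mice 0 of 28 contrasts of the 7 members with age passed (limma), where 4 had an unadjusted p under 0.05, and among all genes 4.21% passed for 8 against 2 months and 0.0861% for 4 against 2 months. In rTg4510 mice 7 of 24 contrasts of the 6 tested members passed, all of them for 4 against 2 months (15.2% of all genes) or 8 against 2 months (21.7%), and none for 6 against 4 months or 8 against 6 months (1.73% and 0.00538%). Csk and Ptprc passed in both, Src for 4 against 2 months, and Lyn and Yes1 for 8 against 2 months.

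The genes around the kinases were read from lists of their regulators, receptors and effectors, 77 measured genes in all. These lists were chosen with earlier results of these data known, so the counts from them are a description. DEGs numbered 2 higher at 2 months, 12 higher and 4 lower at 4 months, 12 higher and 6 lower at 6 months, and 12 higher and 3 lower at 8 months. Over all genes, higher DEGs made up 1.58%, 9.47%, 11.3% and 10.5% and lower DEGs 0.403%, 4.33%, 8.54% and 5.37% at these ages. The median difference over the 77 genes was -0.05 at 4 months and -0.02 at 6 months, beside -0.04 and -0.04 over all genes.

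**Figure D3:**
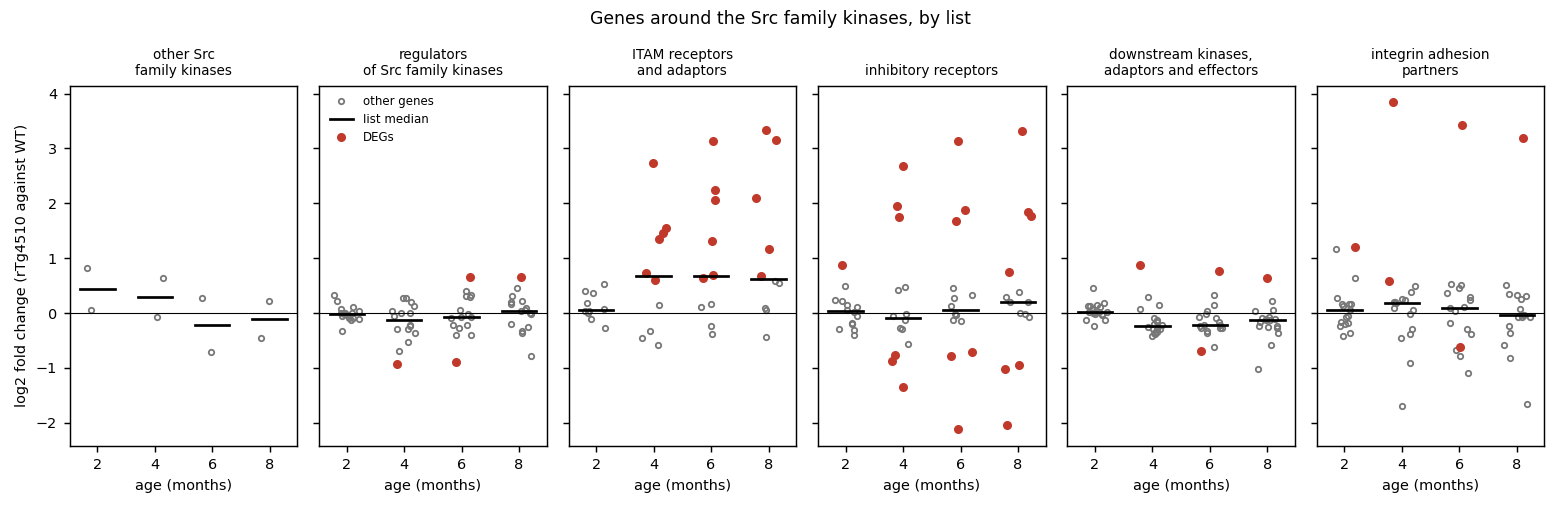
Log2 fold change of rTg4510 against WT (vertical axis) at each age in months for the genes of 6 lists, with DEGs as filled points, other genes as open circles and the list median as a bar. ITAM receptors and adaptors hold 6 higher DEGs at 4 and at 6 months, inhibitory receptors hold 3 higher and 3 lower, and the downstream list lies slightly below 0 from 4 months on.

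Of 10 ITAM receptors and adaptors, which the kinases phosphorylate or signal through, 6 were higher DEGs at 4 and 6 months and 5 at 8 months, with none lower. The list median was 0.67 at 4 months and 0.63 at 8 months. Clec7a, the beta-glucan receptor Dectin-1, rose by 2.73, 3.14 and 3.16 at 4, 6 and 8 months. Cd300lb, which pairs with DAP12, rose by 1.45, 2.23 and 3.33, and the Fc receptor gene Fcgr4 by 1.56, 2.07 and 2.11.

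The adaptors themselves were among these DEGs. Tyrobp, which encodes DAP12, rose by 1.35 at 4 months, and Fcer1g, the common Fc receptor gamma chain, by 0.72. Trem2 was higher by 0.61, 0.65 and 0.58 at the 3 later ages, the last just under the limit for a DEG. Fcgr1 went the other way, and fell by 0.32, 0.38 and 0.44 at 4, 6 and 8 months. The Fc receptor genes have similar copies, and how reads that match several were counted is not stated, so their values are uncertain.

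Among 14 inhibitory receptors, whose ITIM motifs Lyn can phosphorylate, 3 were higher and 3 lower DEGs at 4 and at 6 months, and 4 were higher and 3 lower at 8 months. Cd22, a receptor for sialic acids, rose by 0.88 at 2 months and by 2.69, 3.14 and 3.32 at the later ages. Lilrb4a rose by 1.74, 1.88 and 1.85, and as a gene with a near-identical neighbour it is uncertain. Pecam1, an adhesion receptor, fell by 1.35, 2.12 and 2.04. Endothelial cells express it too. Of 5 endothelial markers at 6 months, Ly6c1 (-1.07) and Vwf (-0.89) were lower DEGs and Flt1 (1.89) a higher one, with a list median of -0.89. The summed endothelial signal (log2) was then 6.49 to 7.49 in WT and 6.90 to 7.31 in rTg4510. At 4 and 8 months Flt1 (0.98 and 1.17) was the only endothelial DEG, with list medians of -0.75 and -0.54. The part of endothelial cells in the Pecam1 values was not tested. Clec4a2 fell by 0.87, 0.70 and 0.95, and Siglece, a sialic acid receptor, by 0.76, 0.77 and 1.03.

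Of the 16 regulators of the kinases, no gene was a DEG at all 3 later ages. Ptpn22, a phosphatase that works with Csk on the active site of the kinases, was higher by 0.67 at 6 months and 0.65 at 8 months, and the adaptor gene Dok3 was lower by 0.93 at 4 months and 0.90 at 6 months. Outside the naming rule, and chosen after its values were seen, Ptpn6 encodes SHP-1, the main phosphatase recruited by inhibitory receptors, and passed at all ages with rises of 0.22, 0.27, 0.40 and 0.47 below 1.5 fold.

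The 18 downstream kinases, adaptors and effectors were mostly lower where they passed, with 2 higher and 7 lower at 4 months, 2 and 9 at 6 months, and 2 and 4 at 8 months, after 1 and 0 at 2 months. The share of all genes that passed with a lower value was 1.27% at 2 months and 9.1%, 14.9% and 9.78% at the later ages. Lat2, a membrane adaptor of ITAM signalling also known as NTAL, was the 1 higher DEG at each later age (0.88, 0.77 and 0.63). Plcg1 was the 1 lower DEG, at 6 months (-0.70). Named after their values were seen, Syk, the kinase that docks on phosphorylated ITAMs, fell by 0.35 and 0.28 at 4 and 6 months, and the phospholipase gene Plcg2 fell by 0.30, 0.27 and 0.17 at 4, 6 and 8 months.

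Of 17 integrin adhesion partners, Itgax, the CD11c chain, was a DEG at all 4 ages and rose by 1.20, 3.85, 3.43 and 3.19. Ptk2b, which encodes the adhesion kinase Pyk2, rose by 0.28, 0.59, 0.51 and 0.50, and was a DEG only at 4 months. Itgam, the CD11b chain by which the cells had been selected, fell by 0.24, 0.38, 0.62 and 0.58, and was a DEG only at 6 months. Their shared beta chain gene Itgb2 rose by 0.50, 0.45 and 0.31 at 4, 6 and 8 months. These 3 genes were named after their values were seen.

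The genes whose 8 group means lay nearest to those of Fgr, each centred on its own mean, were then found among all genes. They were Adssl1, an enzyme of purine synthesis, with a root mean square difference of 0.07, Myo1e, a class I myosin (0.14), Klrb1b, a C-type lectin receptor of NK cells (0.17), Gas2l3, a cytoskeletal linker (0.17), and Capg, an actin capping protein (0.18). The median over all genes was 1.15. Over the 28 single libraries 3 of these 5 stayed among the nearest 5, namely Adssl1, Myo1e and Capg, and over all 32 libraries 2 of the 5 did. Klrb1b has close relatives in its gene cluster and is uncertain.

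**Figure D4:**
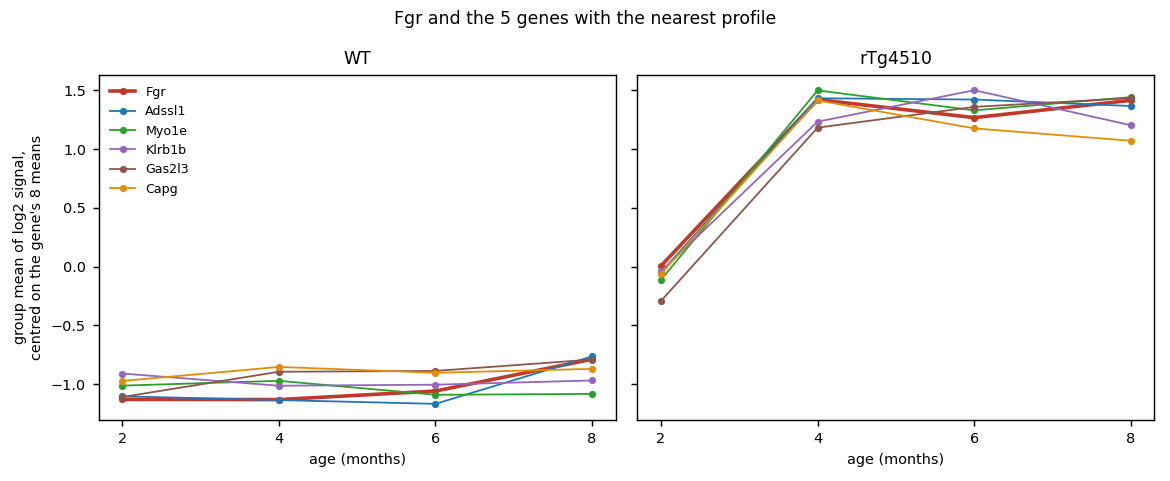
Group means of log2 signal, centred on the mean of each gene's 8 groups (vertical axis), against age in months in WT (left) and rTg4510 (right) mice for Fgr and the 5 genes with the nearest profile. All 6 genes sit between their WT level and their later level at 2 months in rTg4510 and lie higher at 4, 6 and 8 months. The 5 genes were picked for nearness to Fgr, so this likeness follows from the choice.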

How the data were processed

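Genotype, age and replicate number were taken from the labels, and the 28 kept libraries from the study's methods. The members and gene lists were chosen with earlier results of these data known. Per gene, the authors deposited a log2 signal, made in-house by summing exon reads, dropping exons with few counts, combining exons in a robust linear model and normalizing to the median. GRCm38 is named in the submitters' processing notes, and the aligner and annotation are not given in the sources used here. The methods give only an approximate read number common to all samples, and the table holds no read total per library, so no counting interval was computed, and 3 or 4 libraries per group limit the precision. Nothing in the labels says whether pools of a group shared animals or days, so p-values measure the spread between these libraries. The libraries were made from double-stranded cDNA and are not stated to be stranded.

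A linear model with 8 group means was fitted to all 18588 genes with limma 3.58.1 in R 4.3.3, with unmoderated variance and 20 residual degrees of freedom. FDR values were Benjamini-Hochberg adjusted within each contrast. The model was tested on simulated data. Named genes were the 7 members, the other Src family kinases, up to 3 DEGs per list with the largest mean difference among those called at 4, 6 and 8 months, list genes called against most of their list at 2 or more ages, and the 5 genes nearest to Fgr. A single gene that this rule covers is not reported here. Genes named outside this rule are marked, and Tyrobp, Fcer1g, Trem2, Fcgr1, Plcg1 and the marker genes were named after their values were seen. Symbols and promoter sequences came from RefSeq (GRCm38.p6, 95.9% of Entrez numbers matched) and overlaps from GENCODE. Alternatives were all 32 libraries, only the libraries of an age, moderated variance, quantile normalization, a filter on low signals (25th percentile), a replicate block and leaving out each library.

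Whether replicate numbers pair the libraries was checked by the correlation of deviations from group means over genes. Same-numbered libraries gave 0.13 to 0.15 at 6 months and 0.15 to 0.29 at 8 months, and 0.06 to 0.17 and -0.10 to 0.12 at 2 and 4 months. Different-numbered libraries gave -0.13 to 0.09 at 6 months and -0.26 to -0.03 at 8 months. At 2 and 4 months they gave -0.19 to 0.08 and -0.07 to 0.15. Every same-numbered pair exceeded 0.1 only at 6 and 8 months, where the numbers were taken as paired from the data alone. At 2 months the ranges overlapped only slightly, so this split rests on the limit of 0.1. The FDR values given above come from the fit without pairs.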

Additional observations from a re-analysis of the deposited data

Results flagged for a closer look

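In 28 groups of 4 libraries (7 genes at the ages with 4 libraries), a library far from the other 3 was looked for, and chance marks about 1 in 20. Replicate 3 of rTg4510 at 2 months was such a library for Fgr, at 5.30 against 4.84 to 4.88, and for Lyn, at 8.504 against 8.46 to 8.47.

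The genotype effect differed between ages for 3 members by a test of that difference in limma. It fell from 2 to 4 months for Src (-0.67, FDR = 0.0462) and for Csk (-0.42, FDR = 0.0477). For Ptprc it rose by 0.31 (FDR = 0.00413) from 2 to 4 months and by 0.22 (FDR = 0.0312) from 2 to 8 months.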

How the results depend on the processing

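Calls of Fyn and Ptprc held except where given here, the Fgr values are a description, and no called difference changed sign. Some differences near 0 that had not passed the test changed sign when 1 library was left out, and still did not pass. These were Csk (-0.04 to 0.13) and Lyn (-0.08 to 0.01) at 2 months, Src at 6 months (-0.05 to 0.05) and the change of Yes1 from 2 to 4 months (-0.21 to 0.01). With all 32 libraries Src (0.47) and Ptprc (0.22) no longer passed at 2 months, Lyn (-0.082) and Csk (-0.62) at 4 months, Yes1 (-0.58) at 6 months, and Yes1 (-0.54) and Csk (-0.23) at 8 months. The Fgr difference at 4 months was then 1.93 and its change from 2 to 4 months 0.80, and the change of the genotype effect no longer passed for Src (-0.75) or Csk (-0.67). The members that passed numbered 0 at 2 months, 2 at 4 months (Fyn and Ptprc, both DEGs) and 2 at 8 months. Age differences that passed in rTg4510 numbered 2, DEGs of the pathway lists 1 at 2 months, and DEGs over all genes 165 at 2 months.

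With only the libraries of an age, and so fewer degrees of freedom, Src (0.47) at 2 months, Lyn (-0.27), Fyn (0.70) and Csk (-0.37) at 4 months and Yes1 (-0.51) at 8 months did not pass, while Lyn passed at 6 months (-0.10). Members that passed numbered 1 at 2 months and 1 at 4 months, DEGs among them 0 at 4 months, pathway DEGs 1 at 2 months, and DEGs over all genes 244, 1561 and 1854 at 2, 4 and 8 months. Quantile normalization shifted the median of all genes by less than 0.02. Under it Lyn passed at 6 months (-0.24) and 8 months (-0.28) and for the change of its effect (-0.30), Src did not at 2 months (0.49), which left 1 member at that age, and the changes of Src (-0.65) and Csk (-0.39) were lost. Moderated variance ended the change of Csk (-0.42). The cause was not tested.

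Leaving out 1 library gave 0.35 to 0.58 for Src at 2 months, 0.53 to 0.85 for Fyn and -0.42 to -0.20 for Yes1 at 4 months, and -0.35 to -0.28 for Csk at 8 months. The change from 2 to 4 months ran from -0.29 to -0.16 for Lyn, -0.77 to -0.54 for Src and -0.50 to -0.33 for Csk. Members that passed at 2 months numbered 1 to 2, DEGs among them 0 to 1 at 4 months and 1 to 2 at 6 months, and age differences 0 to 1 in WT and 4 to 7 in rTg4510. Yes1 passed at 4 months only without replicate 4 of WT (-0.42), the change of Lyn only without replicate 4 of rTg4510 at 4 months (-0.29), and the rTg4510 age differences were 4 without replicate 4 of 2 months.

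With the libraries of like number and age as a replicate block, no call of a member changed for the genotype difference at any age or its change from 2 to 4 months, with Fyn at 0.95 (FDR = 0.000646) and Ptprc at 0.56 (FDR = 8.35e-06) at 6 months. With the replicate number as a term, the age differences that passed numbered 0 in WT and 6 in rTg4510. No read totals per library were used, and the spread of Lck and Frk between libraries limits what could be detected for them.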
